A study of Rattus norvegicus and Mus musculus and Macaca mulatta with 84 samples.

Results

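Liver expression of 36 genes for blood clotting and complement factors was followed through diabetes in UCD-T2DM rats and after inhibition of the microRNA miR-29 in mice. The genes were listed by symbol, as families of known function: 14 clotting and contact factors, 6 anticoagulant and fibrinolysis proteins and 16 complement components. All 36 were found in the rat table under 37 of its 32754 gene identifiers, and Cfb had 2 of them. In mice 34 of the 36 were found, under 35 of 48440 identifiers, Klkb1 with 2. Every one of these identifiers passed the filter on low values, which kept genes averaging 10 or more across the libraries of their table, so that 37 of the 13640 genes tested in rats and 35 of the 14596 tested in mice belong to these families.

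The series holds 84 liver samples, of which the 31 libraries of polyadenylated RNA were used. Rats of the UCD-T2DM strain, the University of California, Davis model of type 2 diabetes, were sampled before diabetes (prediabetic, n = 5) and after diabetes of 2 weeks (n = 4), 3 months (n = 5) and 6 months (n = 6). All rat groups share this strain, and the prediabetic animals, which served as the control group, are not healthy rats of another strain. C57BL/6J mice were either treated with LNA-29, a locked nucleic acid directed at miR-29 (n = 5), or were controls (n = 6), and what the controls received is not given in the sources used here. Ages and sexes are not given there either, so longer diabetes and higher age cannot be told apart. Each library has a sample name of its own, but nothing states that the samples came from separate animals, so the tests set each difference against a spread among samples that may be technical.

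Hepatocytes make most plasma clotting and complement proteins. In clotting, a chain of proteases ends in thrombin, encoded by F2, which turns fibrinogen into fibrin, while the contact system (F12, prekallikrein from Klkb1 and kininogen from Kng1) starts the chain on surfaces and releases the peptide bradykinin. Antithrombin, heparin cofactor and the protein C system restrain clotting, and plasmin dissolves fibrin. Complement is started by antibodies, by sugar-binding lectins or on surfaces, converges on C3 and C5, and ends in a membrane pore built from C5 to C9. Fibrinogen, several complement components and, in rats, T-kininogen are known as acute phase proteins, which the liver makes in larger amounts during inflammation.

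Values are normalised counts as deposited, and changes are differences of mean log2(normalised count + 1) with the SE of the fit. A gene was called when limma's two-sided test gave an adjusted p under 0.05. The lowest correlation between libraries of one group was 0.954 in rats and 0.979 in mice. All 10 listed hepatocyte markers were found in rats and 9 of 10 in mice, with summed levels that overlapped between groups, with medians of 5886437 normalised counts in prediabetic, 4975067 in 2-week, 4458328 in 3-month and 6357324 in 6-month rats. Of the 10 hepatocyte markers in rats 3 were called lower than in prediabetic rats at 3 months and 2 at 6 months, and 0 higher. Of all tested genes 8.72% and 10.0% were called lower at these times. The part of hepatocyte number in the results was not tested. In whole liver, fewer cells of a type and less RNA per cell cannot be told apart.

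No member was called after 2 weeks of diabetes by limma, 9 were called after 3 months and 10 after 6 months. At 2 weeks 0% of all tested genes were called, with 4 members and 1077 of all genes at an unadjusted p under 0.05. At 3 months 5 members rose and 4 fell, which is 24.3% of 37 beside 16.5% of all tested genes, 7.76% of which were called higher and 8.72% lower. At 6 months 7 rose and 3 fell of the 37, beside 21.1% of all tested genes (11.0% higher and 10.0% lower), so that the members' share lay near the background at both times. Scaling the libraries to equal totals gave 9 higher and 2 lower members at 3 months, 7 of them also called without it. Without 3-month replicate 2, or without prediabetic replicate 2, 5 members were called at 3 months. The share of all tested genes called with that scaling or without these libraries is not given here, so these counts have no background beside them. The 3-month and 6-month comparisons use the same prediabetic libraries and are not independent.

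By role, the clotting group held most of the calls. At 3 months 4 clotting genes rose and 2 fell, and at 6 months 6 rose and 1 fell, of 14. That is 42.9% and 50% called, beside 16.5% and 21.1% of all tested genes. The clotting calls are not independent of each other. Those at 6 months include Fga, Fgb and Fgg, which moved together from library to library. Those at both times include the Kng1 row, which may count another kininogen. None of the 6 anticoagulant and fibrinolysis genes was called at either time by limma, with 1 and 2 of them at an unadjusted p under 0.05. Of the 17 complement identifiers 1 rose and 2 fell at each time, which is 17.6%. The median log2 change at 6 months was 0.42 for clotting, 0.099 for anticoagulant and fibrinolysis and 0.34 for complement identifiers, against 0.0070 for all tested genes. At 3 months the same medians were 0.53, -0.014, 0.12 and 0.020. Differences between the role groups were not tested.

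**Figure D1:**
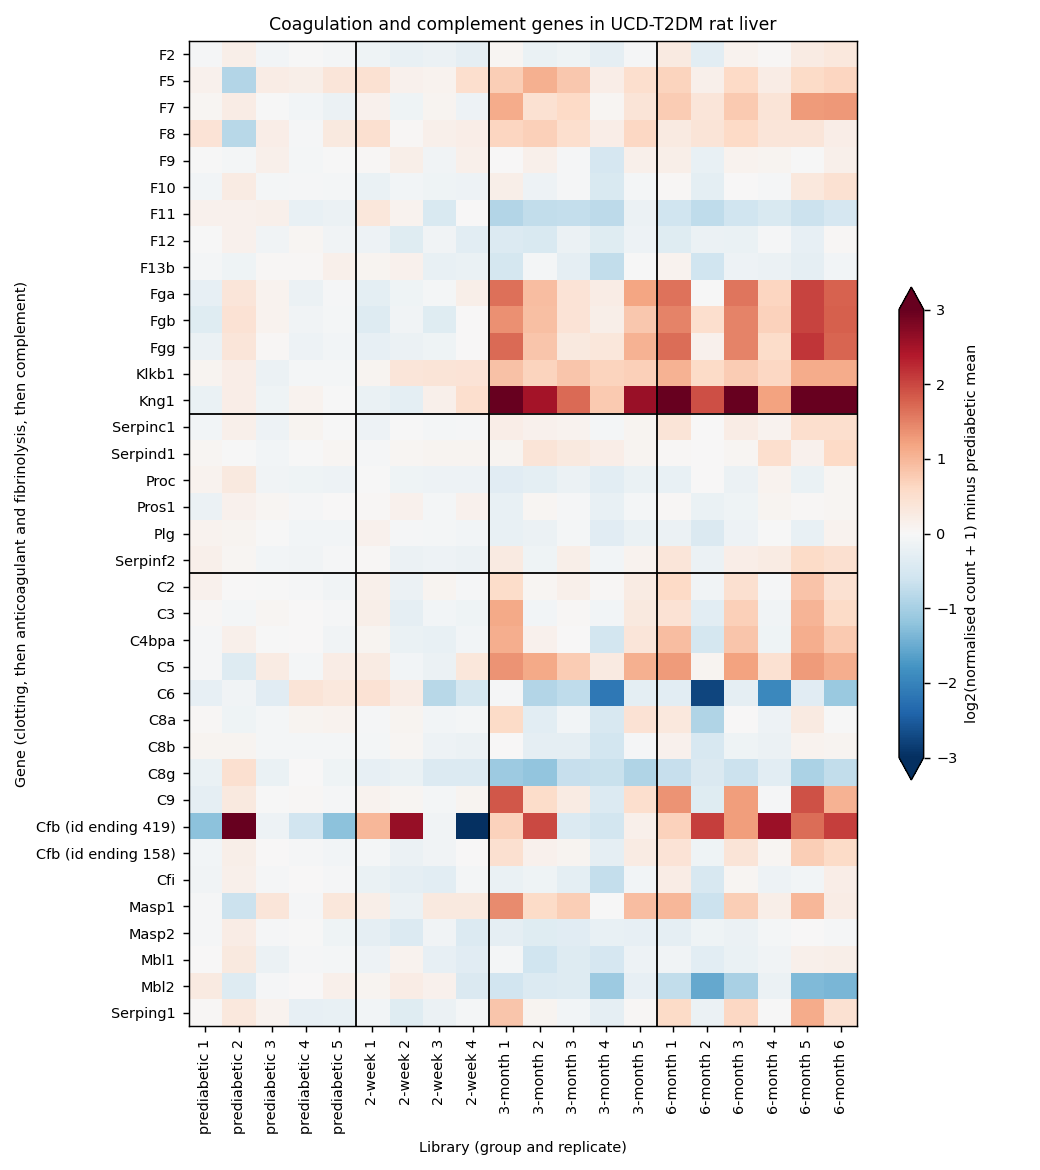
Each row is a gene and each column a rat library, coloured by log2(normalised count + 1) minus the mean of the 5 prediabetic libraries, with black lines between groups and between roles. Kng1 and the fibrinogen genes Fga, Fgb and Fgg are red in most 3-month and 6-month libraries, and 6-month replicates 2 and 4 are paler than the other 4. The row of the low second Cfb identifier varies widely within groups.

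**Figure D2:**
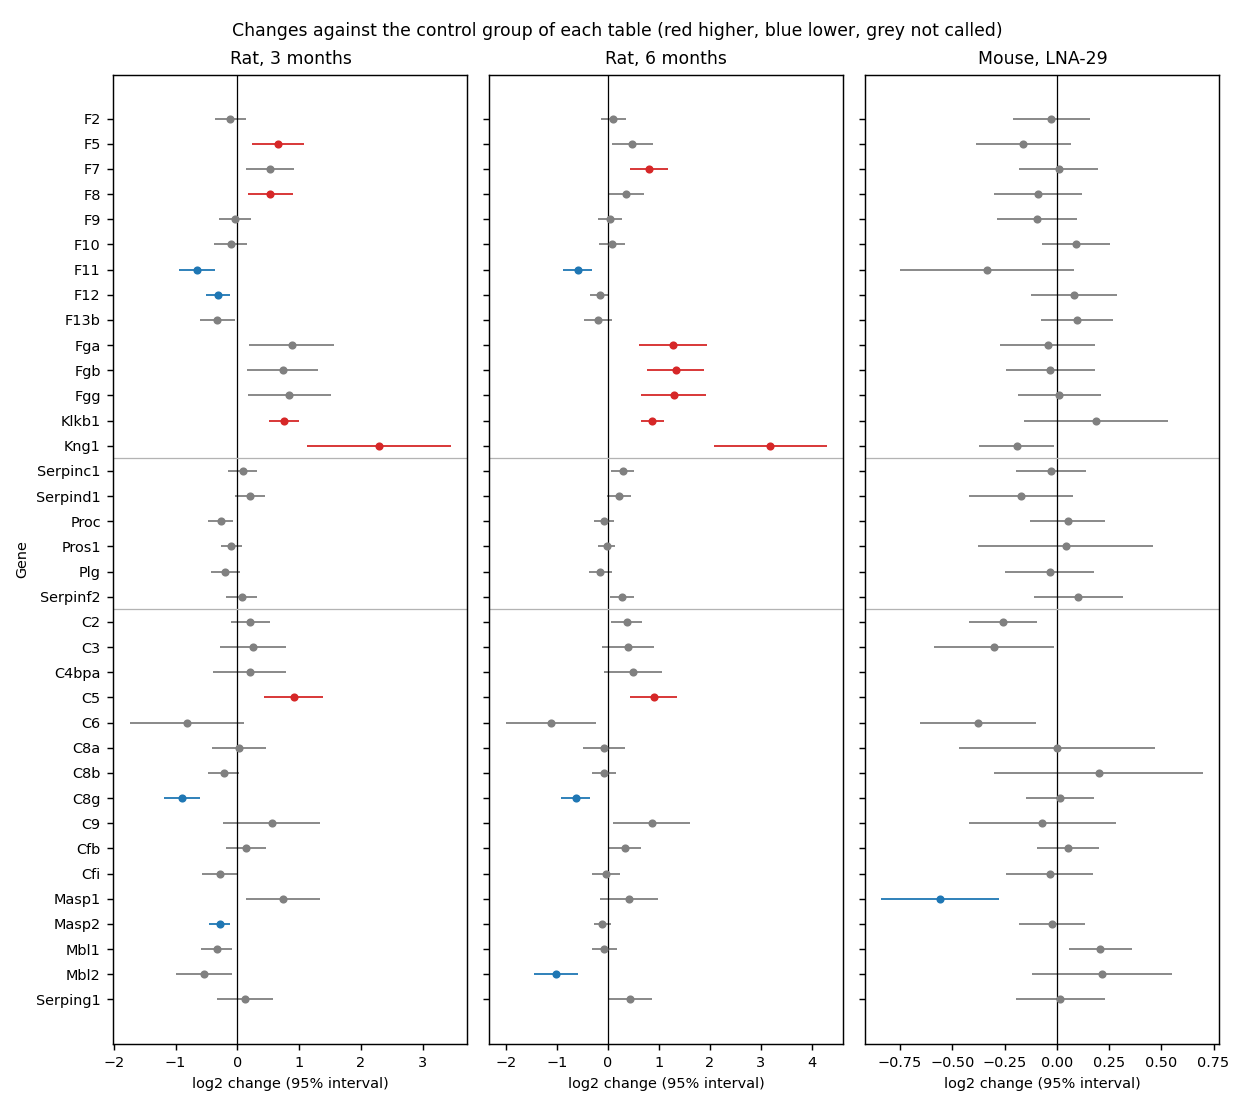
Points are log2 changes against prediabetic rats or control mice with 95% intervals, for clotting, anticoagulant and complement genes from top to bottom, on axes that differ between the 3 panels. Red marks genes called higher, blue genes called lower and grey genes not called; the low second identifiers of Cfb (rat) and Klkb1 (mouse) are left out.

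Kng1 showed the largest change of any member at 3 and 6 months. Kininogen carries prekallikrein and factor XI in plasma and is the source of bradykinin. Its normalised counts were 67905, 89504, 71049.8, 83884 and 76492 in prediabetic rats, 67187, 63480.1, 86576 and 108837 at 2 weeks, 1151236, 438226, 253215, 134066 and 469103 at 3 months, and 177416 (lowest), 987179.9 (median) and 1852002 (highest) at 6 months. All 3-month and 6-month libraries were above every prediabetic library, while the 2-week libraries overlapped the prediabetic ones. Kng1 was 4.93-fold higher at 3 months (log2 change 2.30, SE 0.56, adjusted p = 0.00944) and 9.12-fold higher at 6 months (log2 change 3.19, SE 0.53, adjusted p = 0.000532). It took 0.171% to 0.200% of all normalised counts in prediabetic rats and 0.395% to 3.99% at 6 months. RefSeq lists 3 neighbouring rat kininogen genes, Kng1, Kng2 and Kng2l1, with Kng1 also given as an older name of the other two. Reads may be shared between these near-identical copies, so the deposited row (ENSRNOG00000030387) is uncertain as to which kininogen it counts.

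Fibrinogen is built from 3 chains encoded by the neighbouring genes Fgg, Fga and Fgb. Fgb values were 171529, 297019, 235295, 203368 and 211287 in prediabetic rats, 564726, 411601, 293042, 247707 and 387851 at 3 months and 309800.0 (lowest), 616348 (median) and 899669 (highest) at 6 months. At 6 months every library was above the prediabetic range, and Fgb rose 2.51-fold (log2 change 1.33, SE 0.27, adjusted p = 0.00202). At 3 months 3 of 5 libraries were above it, and the change of 0.73 (SE 0.28, adjusted p = 0.0738) did not pass. Fga counted 149342, 226720.3, 192272, 156811 and 172646 in prediabetic, 560985, 336677, 234558, 208224 and 404835 in 3-month and 176989 (lowest), 546310.1 (median) and 727780.5 (highest) in 6-month libraries. Fgg counted 148019, 216183, 170769, 150489 and 159017, 541368, 298504, 205605, 213017 and 342610.2, and 183069 (lowest), 500344 (median) and 738286 (highest) in the same order. For both, 1 of the 6-month libraries, replicate 2, fell inside the prediabetic range and the other 5 were above it. Fga rose 2.43-fold at 6 months (log2 change 1.28, SE 0.32, adjusted p = 0.00787) and Fgg 2.44-fold (log2 change 1.29, SE 0.31, adjusted p = 0.00642). At 3 months their changes were 0.88 (SE 0.33, adjusted p = 0.0715) and 0.84 (SE 0.32, adjusted p = 0.0765), not past the threshold.

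The 3 chains moved together from library to library. Relative to the prediabetic mean, Fga, Fgb and Fgg stood at 2.04, 2.03 and 2.14 on the log2 scale in 6-month replicate 5, at 0.64, 0.68 and 0.55 in replicate 4, and at -0.0042, 0.49 and 0.13 in replicate 2. The widest gap between chains in any of the 20 rat libraries was 0.50, in 6-month replicate 2. Kng1 also had its highest 6-month value in replicate 5, but its lowest in replicate 4, where the chains were lowest in replicate 2.

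**Figure D3:**
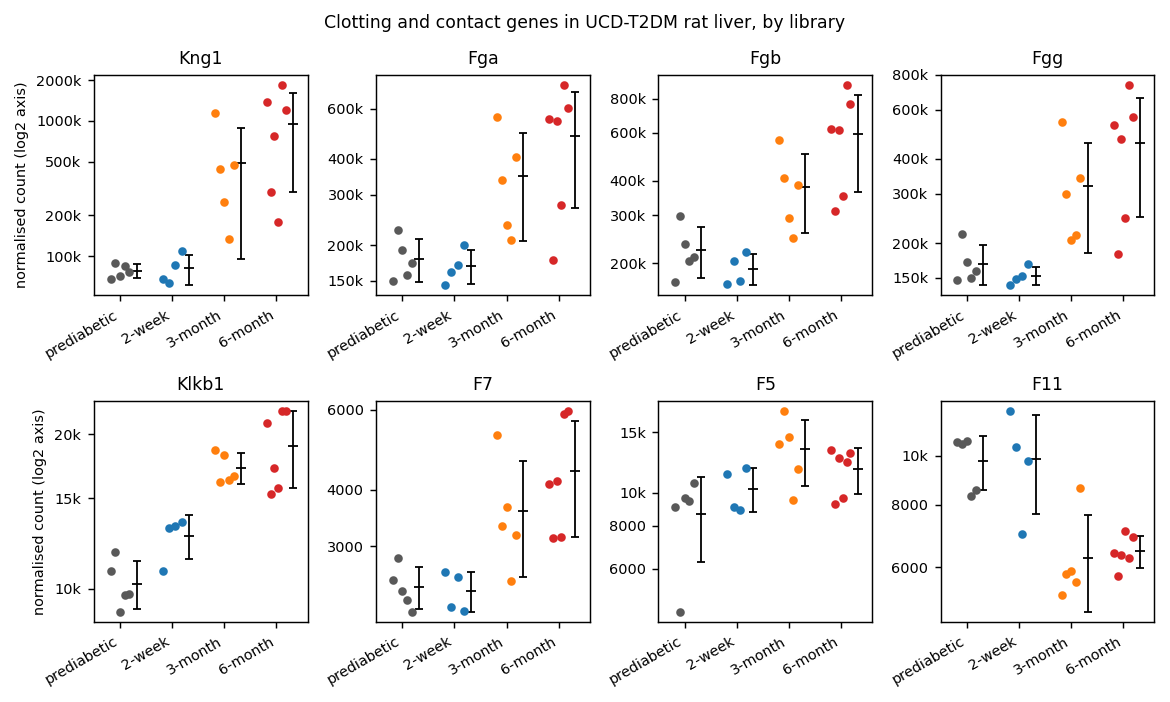
Dots are single rat libraries and the crossbar with whiskers beside them is the mean ± SD of the group, in normalised counts on a log2 axis that differs between genes. Kng1, Klkb1 and F7 at 6 months lie wholly above the prediabetic dots, and F11 at 6 months lies wholly below them.

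The promoters of the fibrinogen and kininogen genes are shown because the fibrinogen and Kng1 rows had the largest called increases at 6 months. As background, elements for acute phase signals are known from the region before the start of liver genes. Whether such elements have a part in the changes seen here was not tested. Each is the 250 bases before a transcription start in RefSeq (GRCr8), 5′ to 3′, with capitals on matches to 4 motifs searched on both strands: the interleukin-6 response element CTGGGAA, the STAT3 motif TTCNNNGAA, the C/EBP motif TTGCNNAA and the HNF1 motif GTTAAT. The STAT3 match and the interleukin-6 element in Kng2l1 overlap. For Fga and Kng2l1, which have 2 starts each, the upstream one is shown.
Fgg (chr2:170652833-170653082, plus strand): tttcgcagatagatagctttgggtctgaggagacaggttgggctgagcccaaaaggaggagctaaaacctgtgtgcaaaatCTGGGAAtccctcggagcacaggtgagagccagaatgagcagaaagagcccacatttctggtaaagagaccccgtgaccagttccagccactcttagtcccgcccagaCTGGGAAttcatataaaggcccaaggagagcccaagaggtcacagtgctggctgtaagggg
Fga (chr2:170671919-170672168, plus strand): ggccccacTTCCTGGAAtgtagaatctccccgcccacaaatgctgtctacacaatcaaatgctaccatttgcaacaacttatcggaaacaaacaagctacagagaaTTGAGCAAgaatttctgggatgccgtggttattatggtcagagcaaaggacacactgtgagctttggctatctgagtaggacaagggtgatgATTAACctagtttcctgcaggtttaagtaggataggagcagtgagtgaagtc
Fgb (chr2:170700876-170701125, minus strand): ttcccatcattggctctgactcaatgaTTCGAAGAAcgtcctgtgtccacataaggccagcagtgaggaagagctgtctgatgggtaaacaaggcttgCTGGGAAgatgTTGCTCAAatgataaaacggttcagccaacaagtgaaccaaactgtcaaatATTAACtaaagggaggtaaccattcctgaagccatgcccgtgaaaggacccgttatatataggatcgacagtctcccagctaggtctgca
Kng1 (chr11:91340149-91340398, minus strand): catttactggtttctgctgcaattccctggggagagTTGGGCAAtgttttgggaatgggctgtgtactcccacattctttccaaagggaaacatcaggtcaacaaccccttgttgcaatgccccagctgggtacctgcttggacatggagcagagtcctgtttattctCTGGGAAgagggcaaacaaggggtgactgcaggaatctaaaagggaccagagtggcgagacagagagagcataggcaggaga
Kng2 (chr11:91418220-91418469, plus strand): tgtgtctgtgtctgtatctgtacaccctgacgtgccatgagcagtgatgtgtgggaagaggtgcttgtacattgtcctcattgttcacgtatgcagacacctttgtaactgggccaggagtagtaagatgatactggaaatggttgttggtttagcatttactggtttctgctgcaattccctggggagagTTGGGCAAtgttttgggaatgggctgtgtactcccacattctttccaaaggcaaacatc
Kng2l1 (chr11:91483169-91483418, plus strand): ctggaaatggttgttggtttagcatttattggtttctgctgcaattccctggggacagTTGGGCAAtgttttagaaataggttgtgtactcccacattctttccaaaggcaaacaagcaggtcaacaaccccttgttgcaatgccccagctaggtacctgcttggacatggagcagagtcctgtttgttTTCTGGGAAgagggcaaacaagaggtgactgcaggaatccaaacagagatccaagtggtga

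Fgb matched all 4 motifs, Fga matched the STAT3, C/EBP and HNF1 motifs, and Fgg matched CTGGGAA at 2 places and none of the others. Kng1 and Kng2l1 both held CTGGGAA and the C/EBP motif, and the Kng2 window held the C/EBP motif and none of the others. The same letters around that C/EBP match began at -214 from the start in Kng1 and at -59 in Kng2. The Kng2 window therefore ended before any letters corresponding to the CTGGGAA stretch of Kng1, and a lack of that element in Kng2 cannot be read from it. RefSeq promoters were matched for 28 of the 36 members, with 29 entries. CTGGGAA stood in 7 of the 29 (24.1%), against 9.56% of all 33465 rat promoters of this length. The STAT3 motif stood in 5 (17.2% against 7.67%), the C/EBP motif in 12 (41.4% against 9.22%) and the HNF1 motif in 10 (34.5% against 6.45%). Among members not called, F9 matched CTGGGAA and the STAT3 and C/EBP motifs, and C8a the STAT3, C/EBP and HNF1 motifs. Among other members called in a rat comparison, Klkb1 matched the C/EBP motif and C5 the HNF1 motif, while F5, F7, F11, F12, Serpinf2 and Mbl2 matched none. The called members C8g, F8 and Masp2 had no promoter entry and could not be searched. Whether matches go with the changes was not tested. A match is a string of letters and not evidence of binding.

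Klkb1 and F11 lie next to each other in RefSeq and changed in opposite directions. Klkb1 encodes prekallikrein, the protease precursor that circulates bound to kininogen. It counted 10835, 11781, 9026, 9749 and 9776 in prediabetic rats, 18657, 16171, 18221, 16268 and 16590.2 at 3 months and 15282 (lowest), 19090.3 (median) and 22187 (highest) at 6 months. All libraries of both diabetic groups were above the prediabetic range, with log2 change 0.75, SE 0.12, adjusted p = 0.000495 at 3 months and log2 change 0.88, SE 0.11, adjusted p = 5.87e-05 at 6 months, the smallest adjusted p of any member. F11, the precursor of the protease factor XIa, counted 10640.0, 10549.7, 10719, 8332 and 8559.6 in prediabetic, 5289, 5814, 5914, 5621 and 8643 in 3-month and 5761 (lowest), 6383 (median) and 7090.3 (highest) in 6-month libraries. At 6 months all 6 were below the prediabetic range, and at 3 months 4 of 5 were, replicate 5 being the exception. F11 fell at 3 months (log2 change -0.66, SE 0.14, adjusted p = 0.00504) and at 6 months (log2 change -0.59, SE 0.14, adjusted p = 0.00525). F12, which starts the contact system, was lower in all 5 libraries at 3 months (23948, 23429, 28232, 25005 and 28621) than in any prediabetic library (32033, 35005, 29926, 33606 and 29985). That fall was small (log2 change -0.32, SE 0.095, adjusted p = 0.0285) and was not called at 6 months (-0.16, SE 0.091, adjusted p = 0.221). At 3 months it was lost without 3-month replicate 1, 2 or 4 or prediabetic replicate 2 or 4 (adjusted p up to 0.0736), and with equal column totals (-0.25, adjusted p = 0.0966).

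Among the factors around thrombin, F7, F5 and F8 were called at one time each. F7, which starts clotting with tissue factor, counted 2527, 2823, 2384, 2279 and 2150.2 in prediabetic rats, 5280.0, 3323, 3669, 2516 and 3172 at 3 months and 3125 (lowest), 4143 (median) and 5968 (highest) at 6 months. Every 6-month library was above the prediabetic range, and F7 rose at 6 months (log2 change 0.81, SE 0.18, adjusted p = 0.00411), with 0.52 (SE 0.19, adjusted p = 0.0608) at 3 months. The cofactor F5 counted 9094, 4499, 9656, 9465 and 10659 in prediabetic rats, with replicate 2 far below the other 4, and 13898, 17301, 14498, 9527 and 11754 at 3 months, when 4 of 5 libraries were above the prediabetic range. F5 rose at 3 months (log2 change 0.66, SE 0.20, adjusted p = 0.0302), but without prediabetic replicate 2 the change was 0.44 with an adjusted p of 0.0616, and the call was also lost without 3-month replicate 1, 2 or 3 (adjusted p up to 0.0853). F8, the cofactor lacking in haemophilia A, counted 449, 189, 387, 329 and 412 and 530.2, 554, 481, 387 and 524 in the same groups. Its rise at 3 months (log2 change 0.54, SE 0.18, adjusted p = 0.0436) was not called without prediabetic replicate 2 (0.33, adjusted p = 0.0755), and the call was lost on leaving out any of 8 of the 20 rat libraries (adjusted p up to 0.0961), among them 2-week replicates 3 and 4. Sinusoidal endothelial cells make F8. The summed level of the 7 sinusoidal endothelium markers found (of 8 listed) was 7661 to 10159 normalised counts in prediabetic and 9851 to 14274 in 3-month rats, with none of them averaging below 1. Platelets carry F5, and the 5 platelet markers found (of 6) summed to 302 to 406 and 549 to 745 in the same groups, again with none averaging below 1. The part of these cells in the changes of F8 and F5 was not tested.

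The other clotting genes did not pass the test at either time. F2, the thrombin precursor, changed by 0.11 at 6 months (95% interval -0.13 to 0.35), F9 by 0.046 (-0.20 to 0.29) and F10 by 0.083 (-0.17 to 0.34). F13b, the carrier subunit of the enzyme that crosslinks fibrin, was at -0.32 at 3 months and -0.20 at 6 months. F10 is the neighbour of F7 in RefSeq.

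None of the 6 genes that restrain clotting or act in fibrinolysis passed the test against the prediabetic group. The smallest p at 3 months was that of Proc, the precursor of the anticoagulant protein C. Proc counted 23003, 26375, 19923, 19828 and 19205 in prediabetic and 17027, 17495, 18952, 17374 and 18648 in 3-month rats. All 5 libraries were below the prediabetic range, with a change of -0.27 (SE 0.097, adjusted p = 0.0641). At 6 months it was Serpinc1, antithrombin, with 81779, 96855, 78903, 92660.5 and 87190.1 in prediabetic rats and 88143 (lowest), 107996 (median) and 124107 (highest) at 6 months. Of the 6 libraries 4 were above the prediabetic range, and the change was 0.29 (SE 0.11, adjusted p = 0.063). Serpinf2, the plasmin inhibitor, was at 0.28, Serpind1, heparin cofactor, at 0.22, Plg, the plasmin precursor, at -0.15 and Pros1, the cofactor of protein C, at -0.023 at 6 months. The 95% intervals of the 6 genes at 6 months reached from -0.38 (Plg) to 0.52 (Serpinf2).

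In the complement group, the terminal components moved unequally. C5, whose cleavage starts the membrane pore, counted 22037, 17345, 26704, 21818 and 26335 in prediabetic rats, 57371, 49468, 38011, 27427 and 47124 at 3 months and 24063 (lowest), 49987 (median) and 54624 (highest) at 6 months. All 3-month libraries and 5 of 6 at 6 months were above the prediabetic range. C5 rose at 3 months (log2 change 0.91, SE 0.23, adjusted p = 0.0113) and 6 months (log2 change 0.90, SE 0.22, adjusted p = 0.00739). C8g, the small lipocalin subunit of C8, counted 8205, 13055, 8179.8, 9459 and 8598 in prediabetic rats, 4421, 4090.2, 5812, 5911 and 5020.1 at 3 months and 4836 (lowest), 5897 (median) and 7466 (highest) at 6 months. All libraries of both diabetic groups were below the prediabetic range, and C8g fell at 3 months (log2 change -0.90, SE 0.14, adjusted p = 0.000509) and 6 months (log2 change -0.63, SE 0.13, adjusted p = 0.00322). The other subunits of C8, encoded by neighbouring genes, were not called: C8a was at -0.079 (95% interval -0.49 to 0.34) and C8b at -0.074 (-0.32 to 0.17) at 6 months.

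C9 and C6, 2 further parts of the pore, spread widely between libraries and were not called. C9 counted 42995, 64246, 51701, 53474 and 50834 in prediabetic rats, and 40725 (lowest), 116260.5 (median) and 196671 (highest) at 6 months, with 4 of 6 libraries above the prediabetic range and 1 below it (0.86, SE 0.36, adjusted p = 0.097). C6 counted 6367, 7040.1, 5956, 9845 and 9406 and 1119 (lowest), 4743 (median) and 6237 (highest) in the same groups, with 3 of 6 libraries below the prediabetic range (-1.12, SE 0.42, adjusted p = 0.0669). The 2 lowest C6 values at 6 months were 1119 in replicate 2 and 1991 in replicate 4, the libraries that were also lowest for fibrinogen and Kng1.

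Of the lectin pathway, Mbl2 and Masp2 fell at one time each. Mbl2, mannose-binding lectin C, counted 7944, 5025, 6376, 6677 and 7292 in prediabetic rats, 4437, 4935, 5063, 3087 and 5561 at 3 months and 2283 (lowest), 2989 (median) and 5875 (highest) at 6 months. At 6 months 5 of 6 libraries were below the prediabetic range, replicate 4 being the exception, and Mbl2 fell to 0.494 of its prediabetic level (log2 change -1.02, SE 0.21, adjusted p = 0.00258), with -0.54 (SE 0.22, adjusted p = 0.0955) at 3 months. Mbl1, mannose-binding lectin A, did not pass at either time, with -0.34 (SE 0.12, adjusted p = 0.0667) at 3 months and -0.067 (SE 0.12, adjusted p = 0.732) at 6 months. Masp2, the protease that cleaves C4 and C2, counted 11571, 13932, 11601, 11835 and 10985 in prediabetic and 9859.8, 9230.4, 9407, 10310.3 and 10138 in 3-month rats, all 5 below the prediabetic range. Its fall at 3 months was small (log2 change -0.29, SE 0.084, adjusted p = 0.0242), was not called without prediabetic replicate 2 (-0.23, adjusted p = 0.0541) or 3-month replicate 2 or 3 (adjusted p up to 0.0585), and was not called at 6 months (-0.11, SE 0.080, adjusted p = 0.371). Masp1, which activates Masp2, was at 0.73 (SE 0.29, adjusted p = 0.0841) at 3 months.

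The central and regulatory components did not pass. C3, on which all pathways converge, counted 437456, 407613, 445231, 430833 and 416576 in prediabetic rats and 340718 (lowest), 608493 (median) and 869300.5 (highest) at 6 months (0.39, SE 0.24, adjusted p = 0.274). Cfb, the alternative pathway protease, was at 0.34 under its main identifier (ENSRNOG00000051158), and its neighbour C2 at 0.37, with adjusted p = 0.107 and 0.0762. The other Cfb identifier held 0 to 2069 normalised counts beside 60943 to 124133 under the main one, and was not called. The inhibitors Serping1, Cfi and C4bpa were at 0.43, -0.038 and 0.50 at 6 months, with 95% intervals of -0.0012 to 0.87, -0.31 to 0.23 and -0.065 to 1.07.

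**Figure D4:**
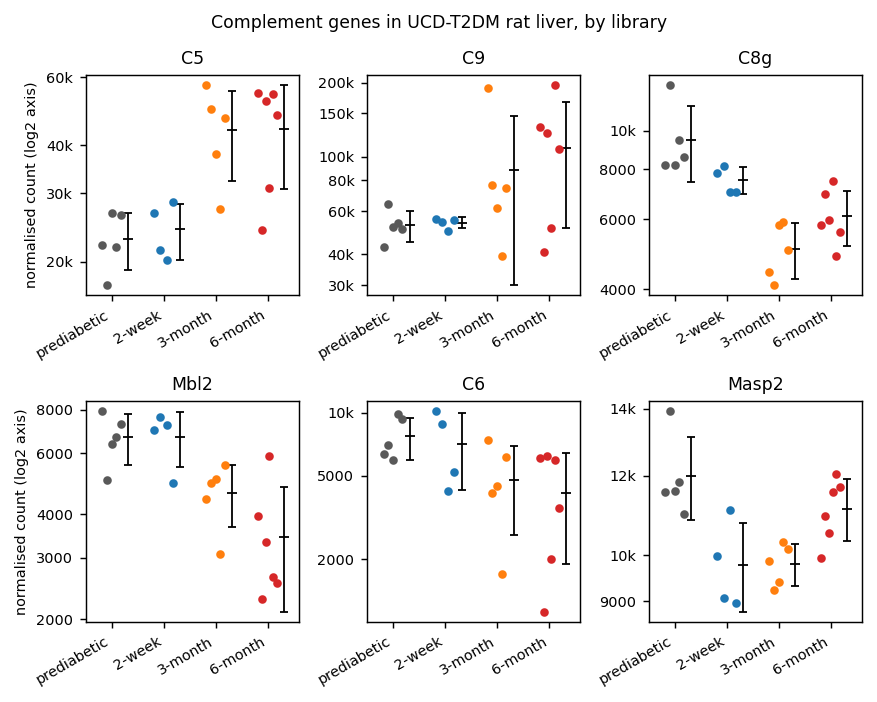
Dots are single rat libraries and the crossbar with whiskers beside them is the mean ± SD of the group, in normalised counts on a log2 axis that differs between genes. C8g at 3 and 6 months lies wholly below the prediabetic dots, while C9 and C6 spread widely at both times.

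The 6-month libraries differed from each other. Replicate 2 had the lowest value of its group for 30 of the 37 member identifiers, and replicates 2 and 4 were the 2 lowest for all 7 members that rose. Member identifiers together took 5.05% and 5.41% of the normalised counts in these libraries and 9.91% to 13.9% in the other 4, against 4.70% to 5.08% in prediabetic rats. Mitochondrial transcripts took 11.7% or more of the normalised counts in replicates 2 and 4, 7.56% to 10.6% in the other 4 and 7.31% to 8.56% in prediabetic rats, and their part in the result was not tested. Without replicate 2, 16 members were called at 6 months, all 10 of the full comparison among them. The share of all tested genes called without replicate 2 is not given here. The gain can therefore not be read as particular to the members. The 6 gained were Serpinc1 (0.34, adjusted p = 0.0297), Serpinf2 (0.37, 0.0151), C2 (0.46, 0.0220), Cfb (0.44, 0.0345), C4bpa (0.71, 0.0465) and C9 (1.10, 0.0284), each higher.

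After 2 weeks of diabetes no member had moved far enough to be called. The smallest p in each role belonged to Klkb1, Proc and Masp2. Klkb1 at 2 weeks counted 10826, 13152, 13251 and 13518, 3 of 4 libraries above the prediabetic range, with a change of 0.31 (SE 0.12, adjusted p = 0.527). Masp2 counted 9972, 9056, 11094 and 8967, 3 of 4 below the prediabetic range (-0.29, SE 0.089, adjusted p = 0.416), and Proc 21219, 19637, 19423 and 19352, all inside that range (-0.11, SE 0.10, adjusted p = 0.812). For F12, F2 and C8g every 2-week library was below the prediabetic range. Their changes were -0.24 (SE 0.10), -0.20 (SE 0.13) and -0.32 (SE 0.15), with limma adjusted p = 0.563, 0.696 and 0.614. How many of all tested genes separated in this way is not given here. For Kng1 the 95% interval of the 2-week change was wide (-1.20 to 1.28), and for Fgb it was -0.82 to 0.40.

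Comparing 6 months with 2 weeks tests directly whether the 2 stages differ. The prediabetic and 3-month libraries enter this comparison only through the shared estimate of the spread. Of the 37 member identifiers 8 were higher and 2 lower at 6 months, beside 8.82% of all tested genes (4.66% higher and 4.16% lower). Scaling to equal totals gave 6 higher and 5 lower, 8 of the 10 among them, and the share of all tested genes with that scaling is not given here. Kng1 was 8.87-fold higher (log2 change 3.15, SE 0.57, adjusted p = 0.00324), its 2-week values being 67187, 63480.1, 86576 and 108837, all below every 6-month value. Fgb had counted 168706, 204836, 171966 and 220269, Fgg 141362, 148158, 152938 and 167664 and Fga 144555, 161042, 171039.9 and 199828 at 2 weeks. Fgb (log2 change 1.54, SE 0.28, adjusted p = 0.00352) and Fgg (log2 change 1.42, SE 0.33, adjusted p = 0.0141) were higher in every 6-month library than in any at 2 weeks, and Fga (log2 change 1.36, SE 0.34, adjusted p = 0.0187) in 5 of 6. Klkb1 (0.56, SE 0.12, adjusted p = 0.0082) and F7 (0.84, SE 0.19, adjusted p = 0.0138) were also higher, and F11 was lower (-0.58, SE 0.14, adjusted p = 0.0187).

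Serpinf2 was the single called anticoagulant or fibrinolysis gene in that comparison. Its values were 22685, 19431, 19937 and 19636 at 2 weeks and 19673 (lowest), 27260.3 (median) and 32818 (highest) at 6 months, with 5 of 6 above the 2-week range (log2 change 0.40, SE 0.12, adjusted p = 0.0478). Of the complement genes C5 rose from 26723, 21444, 20129 and 28519 at 2 weeks, with 5 of 6 libraries at 6 months above these (log2 change 0.81, SE 0.23, adjusted p = 0.0367), and Mbl2 fell from 6982, 7628, 7244 and 4916, with 5 of 6 below (log2 change -1.02, SE 0.22, adjusted p = 0.0106). Without 2-week replicate 2 the count of called members dropped from 10 to 3, Kng1, Fgb and Klkb1, and without replicate 1 to 6. The share of all tested genes called without these libraries is not given here, so the drops cannot be read as particular to the members. The calls of F11 (adjusted p up to 0.0812) and Fga (up to 0.0660) were lost without 2-week replicate 1 or 2. The call of Serpinf2 was lost on leaving out any of 14 of the 20 rat libraries, from all 4 groups (up to 0.140). That of C5 was lost without any of 8, the 4 libraries of 2 weeks and 6-month replicates 1, 3, 5 and 6 (up to 0.117).

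Further genes of the same systems were read from lists by role. Of 11 other clotting genes in rats, Vwf, the platelet-binding carrier of factor VIII, rose at 3 months (0.79, SE 0.23, adjusted p = 0.0248) and 6 months (0.89, SE 0.22, adjusted p = 0.0082). Vkorc1, the vitamin K reductase on which F2, F7, F9, F10, Proc and Pros1 proteins depend, fell at both (-0.88, SE 0.13, adjusted p = 0.000252, and -0.84, SE 0.12, adjusted p = 0.000146), and Mcfd2, a transport factor for F5 and F8, rose by 0.26 at 6 months (SE 0.088). Of 13 anticoagulant and fibrinolysis genes 4 rose at each time and none fell, beside 7.76% (3 months) and 11.0% (6 months) of all tested genes called higher. Markers of other liver cells moved at the same times. Stellate cell markers rose for 5 of 8 at 3 months and 3 of 8 at 6 months, with summed levels of 3785 to 5936 in prediabetic, 7045 to 9816 in 3-month and 5619 to 8940 in 6-month rats. Of 6 tested lymphocyte and neutrophil markers 3 rose at each time (447 to 634, 812 to 3578 and 620 to 2744 in the same order), and of 6 bile duct markers 1 and 3 rose (899 to 1589, 956 to 2957 and 1374 to 2477). One lymphocyte and neutrophil marker, Ly6d, averaged below 1, and the part of these cells in the counts of the wider lists was not tested. Plau and Plat, the plasminogen activators, rose by 1.09 and 1.18 at 6 months (adjusted p = 0.00122 and 0.0182). Thbd, thrombomodulin, rose at 3 months (0.84, SE 0.23, adjusted p = 0.0194).

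Of 25 further complement genes 5 rose and 3 fell at 3 months, and 8 rose and 3 fell at 6 months. That is 32% and 44% called, beside 16.5% and 21.1% of all tested genes. C1qb and C1qc, chains of the classical pathway recognition protein, rose by 1.03 and 1.00 at 6 months (SE 0.21 and 0.20), after 0.80 and 0.83 at 3 months. C4b rose at 6 months (1.99, SE 0.58, adjusted p = 0.0207), though C4a and C4b are near-identical and their reads may be split between them. The membrane-bound regulators Cr1l and Cd59 fell by 0.31 and 0.30 at 6 months (adjusted p = 0.0195 and 0.0185). These were not the largest falls of the list. At 6 months its changes reached from -3.35, in a gene not named here, to 1.99. Of 7 complement receptors 4 rose at 3 months (57.1%) and 5 at 6 months (71.4%), among them C3ar1, the receptor for the C3a peptide (1.24, SE 0.25, adjusted p = 0.00244), and Vsig4 (1.31, SE 0.24, adjusted p = 0.00102). Macrophages of the liver make C1q and carry these receptors, and 7 of 8 Kupffer cell markers rose at each time. Their summed level was 10368 to 14832 in prediabetic rats, 14250 to 36905 at 3 months and 15543 to 48536 at 6 months, none of them averaged below 1, Vsig4 is among them, and their part in the result was not tested.

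Acute phase and signalling genes were read beside the members. Of 11 acute phase genes 3 rose and 1 fell at 3 months, and 4 rose and 1 fell at 6 months. That is 36.4% and 45.5% called, beside 16.5% and 21.1% of all tested genes. Lbp, which binds bacterial lipopolysaccharide, rose by 2.35 (SE 0.44), Orm1 by 1.69 (SE 0.58) and Lcn2 by 5.07 (SE 1.15) at 6 months, and Ttr, which falls in inflammation, fell by 1.22 (SE 0.17). Of 5 interleukin-6 signalling genes Socs3 (1.80, SE 0.60, adjusted p = 0.0454), Il6st (0.73, SE 0.21, adjusted p = 0.0221) and Jak2 (0.57, SE 0.11, adjusted p = 0.00213) rose at 3 months, and Jak2 at 6 months (0.42, SE 0.10, adjusted p = 0.00788). Of 11 hepatocyte transcription factors Cebpa fell at 3 months (-0.68, SE 0.18, adjusted p = 0.0157) and 6 months (-0.86, SE 0.17, adjusted p = 0.00219), and Cebpd rose at 6 months (1.50, SE 0.51, adjusted p = 0.0414).

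In mice given LNA-29, 1 of 35 member identifiers was called, lower than in controls, which is 2.86% beside 2.43% of all tested genes (1.57% higher and 0.863% lower), and 6 had an unadjusted p under 0.05. The level of miR-29 in these mice was not analysed here. The called gene was Masp1, whose values were 2522 (lowest), 3601 (median) and 4223 (highest) in controls and 2434, 2945, 1956, 2518 and 2266 with LNA-29. Of the 5 treated libraries 4 were below the whole control range, and control replicate 5, the lowest control, lay inside the treated range. Masp1 fell to 0.679 of the control level (log2 change -0.56, SE 0.13, adjusted p = 0.0446). The call was close to the threshold and ended on leaving out any of 9 of the 11 libraries, with an adjusted p up to 0.113. Without control replicate 5 it held, and C6 was called beside it (-0.49, adjusted p = 0.00816).

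Kng1 and the fibrinogen genes, which had the largest called rises at 6 months in rats, were not called in the treated mice. The rat Kng1 row may count another kininogen, so the rat and mouse Kng1 rows may not stand for the same gene. Mouse Kng1 counted 71219 (lowest), 79007 (median) and 85598 (highest) in controls and 61793, 73958, 76543, 67421 and 65312 with LNA-29, 3 of 5 below the control range, and had the smallest p of the clotting genes without being called (-0.19, SE 0.084, adjusted p = 0.231). The 95% intervals of Fga (-0.27 to 0.18), Fgb (-0.24 to 0.18) and Fgg (-0.19 to 0.21) all included 0 and excluded changes of the size seen at 6 months in rats. F11 was at -0.33 (-0.75 to 0.083), and the 2 Klkb1 identifiers at 0.19 (-0.16 to 0.53) and, for the one with fewer counts (ENSMUSG00000031640), -0.97 (-2.34 to 0.41). Serpind1 had the smallest p of the anticoagulant genes, with 12759.9 (lowest), 17486 (median) and 20937 (highest) in controls and 13833, 18292, 14580.1, 15091 and 15603 with LNA-29 (-0.17, SE 0.12, adjusted p = 0.445).

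Among the other mouse complement genes, C3 counted 491765 (lowest), 579141 (median) and 673322 (highest) in controls and 442054, 460153, 486380.3, 489793 and 446764 with LNA-29. All 5 treated libraries were below every control, but the change did not pass (-0.30, SE 0.13, adjusted p = 0.235). C2 was at -0.26 (SE 0.075, adjusted p = 0.087), C6 at -0.38 (SE 0.13, adjusted p = 0.136) and Mbl1 at 0.21 (SE 0.070, adjusted p = 0.129). C5 and C4bpa were not found by those symbols; the mouse names Hc and C4bp gave -0.16 (adjusted p = 0.394) and -0.11 (0.706). Of the wider lists Vkorc1 rose (0.34, SE 0.081, adjusted p = 0.0464), as did C4a (0.63, SE 0.15, adjusted p = 0.0479), 1 of 11 further clotting and 1 of 26 further complement genes. None of the 8 Kupffer cell markers was called in mice by limma, and their summed level was 7555 to 10089.8 in controls and 6328 to 12048 with LNA-29. No hepatocyte, bile duct, platelet or lymphocyte and neutrophil marker was called either. Called higher were 1 of 8 sinusoidal endothelium, 1 of 8 stellate cell and 1 of 2 tested acinar cell markers, beside 1.57% of all tested genes. Of 12 acute phase genes 1 was called higher and 1 lower. The part of these cells in the changes was not tested. Mitochondrial transcripts took 7.23% to 8.59% of the normalised counts in controls and 6.28% to 7.22% with LNA-29, ranges that do not overlap, and their part in the changes of Masp1 and C3 was not tested.

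**Figure D5:**
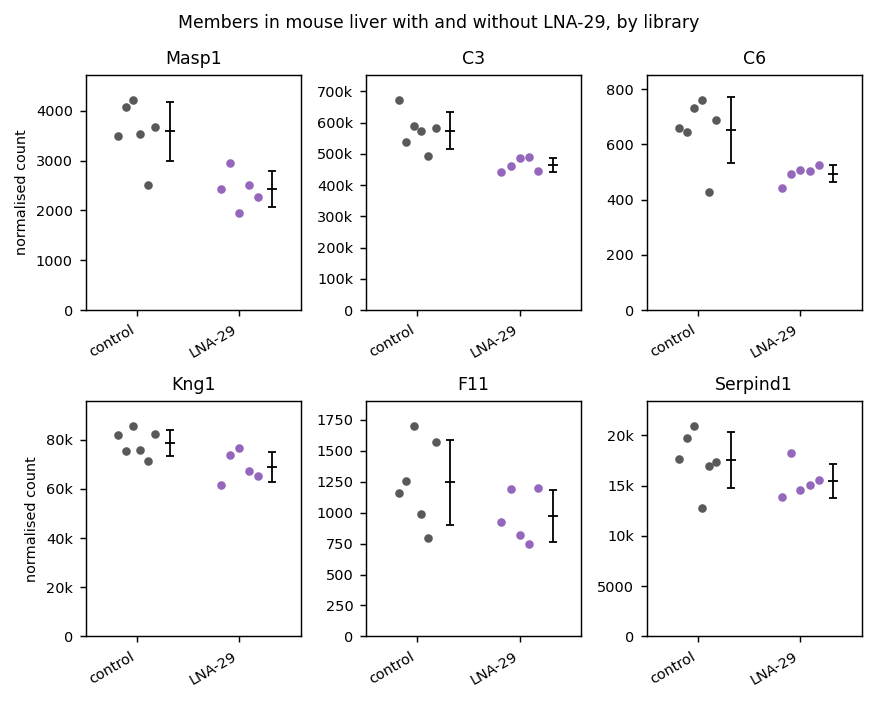
Dots are single mouse libraries and the crossbar with whiskers beside them is the mean ± SD of the group, in normalised counts on linear axes from 0. LNA-29 libraries lie below all controls for C3, and for Masp1 all LNA-29 dots but the highest lie below all controls. The groups overlap for Kng1, F11, C6 and Serpind1.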

How the data were processed

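Per the labels' protocols, libraries were made with the Illumina TruSeq polyA+ kit. The submitters' processing notes name STAR, Salmon and DESeq2 and the builds rn6, mm10, mm9 and hg19, without versions or roles. The authors deposited normalised counts per gene, a signal that is not whole numbers; whole reads could not be recovered, so no count model was run. Small RNA tables were not used here, and no per-sample column was left unmapped (0 of each table). Members and gene lists were chosen with earlier results of these data known.

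Values were transformed to log2(value + 1), genes with a table mean of at least 10 were kept, and limma 3.58.1 (R 4.3.3) was fitted with a variance trend over all groups of a table, without replicate block, for 5 comparisons. P-values are two-sided, Benjamini-Hochberg adjusted over all tested genes, and called under 0.05. The pseudocount understates changes of low genes. The code was tested on simulated data. Values by library are given for up to 4 called members per role and comparison with the largest change, or the member with the smallest p where none was called, and for other members chosen after their values were seen. Genes from wider lists are up to 3 called per direction with a table mean of at least 50, not all of them printed. Labels give no batch for these libraries. Same-numbered libraries were not paired: their deviations correlated between -0.18 and 0.22. Near-identical genes (kininogens, C4a and C4b) are uncertain, since counting may split them.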

Additional observations from a re-analysis of the deposited data

Results flagged for a closer look

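Within groups of 4 to 10 libraries, a library standing apart from the rest of its group was found 6 times among 74 groups of values checked over 20 identifiers, where chance gives about 1 in 20. In 2-week rats replicate 1 was highest for Serpinf2 (22685) and Proc (21219) and lowest for Klkb1 (10826). F11 was highest in 3-month replicate 5 (8643), F5 lowest in prediabetic replicate 2 (4499), and Masp1 lowest in control mouse replicate 5 (2522). No cause was tested.

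The changes against prediabetic rats differed between 6 months and 2 weeks of diabetes for 10 of 37 member identifiers, beside 8.82% of all tested genes. This is limma's test of 6-month against 2-week libraries, the same comparison as above. Leaving out single libraries gave as few as 3 called members. The call of Serpinf2 was lost on leaving out any of 14 libraries, and that of C5 any of 8. The difference in log2 change was 3.15 for Kng1, 1.54 for Fgb, 1.42 for Fgg, 1.36 for Fga, 0.84 for F7, 0.81 for C5, 0.56 for Klkb1, 0.40 for Serpinf2, -0.58 for F11 and -1.02 for Mbl2.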

How the results depend on the processing

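No result reversed under any setting tried: 2 other pseudocounts, 2 other filters on low values, 2 rescalings, no variance trend, a replicate block, only the groups compared (rats), array weights (mice) and leaving out each library. Count models were not run. The count of called members at 2 weeks stayed 0 throughout. The share of all tested genes called in each setting is not given here, so the counts below have no background beside them. Leaving out libraries gave 5 to 13 members at 3 months, lowest without 3-month replicate 2 or prediabetic replicate 2, 10 to 16 at 6 months, highest without 6-month replicate 2, 3 to 14 for 6 months against 2 weeks, lowest without 2-week replicate 2, and 0 to 2 for LNA-29. The LNA-29 call was lost with no filter on low values (0 members), with no variance trend (0) and with a replicate block (0). With the replicate block 6 members instead of 10 were called for 6 months against 2 weeks, with Fga, Fgg, C5 and Serpinf2 lost. At 3 months it gave 11, at 6 months 10 and at 2 weeks 0. Same-numbered libraries correlated above 0.1 in 0 to 3 pairs of a comparison, and 2 of 4 (2 weeks), 0 of 5 (3 months), 1 of 5 (6 months), 2 of 4 and 1 of 5 (LNA-29) matched best with their own number, so the block rests on numbers alone. Equal column totals moved the median of all genes from -0.0031 to -0.18 for 6 months against 2 weeks. Among single members at 3 months, the calls of F12, F5, F8 and Masp2 were lost with only the groups compared (adjusted p = 0.0669, 0.0882, 0.127 and 0.0624), those of F12 and Masp2 with equal totals (0.0966 and 0.0870) and those of F12 and F8 with no filter on low values (0.0546 and 0.0594). Serpinc1 at 6 months was called without a variance trend (adjusted p = 0.0386). The cause of these changes was not tested. Depth in reads is unknown, so counting error could not be given.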
